A study of Mus musculus with 10 samples.

Results

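The 9 genes described here are Trem2, Tyrobp, Spp1, Mmp12, Gpnmb, Lgals3, Atp6v0d2, Itgax and Cd9, genes whose joint expression is known from lipid-associated macrophages. They were taken by symbol from the 47937 genes of the count tables, and all 9 were found and passed the filter on low counts in every comparison. Their expression was measured by mRNA-seq in visceral white adipose tissue (WAT) of C57BL/6 mice that carried either both wild-type copies of Mof, the gene of a histone acetyltransferase (Mof+/+), or 1 disrupted copy in all tissues (Mof+/-). The 4 groups were 3 Mof+/+ and 3 Mof+/- libraries from mice on standard diet (SD) and 2 Mof+/+ and 2 Mof+/- libraries from mice on high-fat diet (HFD). The series' description gives an age of 8 weeks for the SD mice and of 27 weeks, after 20 weeks of HFD, for the HFD mice, so that diet and age cannot be told apart. The study's text gives a longer time on HFD and other ages, so that neither is certain. The labels and methods name no pooling of animals, and the libraries were called biological replicates.

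In obese fat, macrophages gather around dying adipocytes in crown-like structures, take up the released lipid and break it down in lysosomes. The receptor TREM2 binds lipids and signals through its adaptor TYROBP, and the cells of this state also carry lysosomal, matrix and surface proteins encoded by the other genes. None of the 9 genes belongs to macrophages alone: Spp1, Atp6v0d2 and Gpnmb are also known from osteoclasts, Itgax from dendritic cells, and Lgals3 and Cd9 from many cell types. Counts from a piece of tissue cannot tell fewer cells of a type from less RNA per cell.

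The libraries were not equal in quality. Levels are given as CPM, a gene's counts relative to all counts on genes in its library. Counts on genes ranged from 1044355 to 17171947 per library. The smallest library, HFD Mof+/- replicate 1, held 26.9% mitochondrial counts and 7.70% counts of 16 skeletal muscle genes, against at most 8.81% and 0.185% elsewhere. The 0.185% was in HFD Mof+/- replicate 2, and no library outside this group held more than 0.0091% muscle counts. SD Mof+/+ replicate 3 held lymphocyte genes (666 CPM summed over 12 T, NK and B cell markers, against at most 98.4 CPM elsewhere), and SD Mof+/+ replicate 2 held glial genes (1141 CPM summed over 6 markers, against at most 152 CPM elsewhere). Levels also moved with gene length. The rank correlation across genes between exon length and a library's deviation in log2 CPM from the mean over all libraries was 0.240 to 0.326 in SD Mof+/+, −0.295 to 0.098 in SD Mof+/-, −0.034 and 0.038 in HFD Mof+/+ and −0.148 and −0.050 in HFD Mof+/- libraries. Mof, listed as Kat8, was at 20.4 to 21.5 CPM in SD Mof+/+, 11.5 to 18.8 CPM in SD Mof+/-, 18.1 and 19.2 CPM in HFD Mof+/+ and 20.1 and 10.5 CPM in HFD Mof+/-, where 20.1 CPM rested on 21 counts. The methods state male mice, but Xist, which is transcribed from the inactive X chromosome, was at 46.1 to 139 CPM in the 3 SD Mof+/- libraries and at 0 counts in the other 7, and the Y-linked Ddx3y was at 0 counts in the same 3 libraries and at 49.7 CPM or more in the others. The sex markers therefore moved with genotype on SD and with diet in Mof+/-, and these cannot be told apart. The wild-type diet comparison and the genotype comparison on HFD held Ddx3y and no Xist in every library. The column headings inside the tables exchange the genotype of the third SD libraries. The headings of the HFD Mof+/- libraries, replicates 1 and 2 by their labels, carry the numbers 3 and 4. SD Mof+/+ replicate 3, headed as heterozygous, had 0 counts of Xist and 73.8 CPM of Ddx3y, as in replicates 1 and 2.

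Stretches around the start sites are shown for the genes whose promoter held a searched motif, since the genes moved together. Of the 9 genes, 7 had entries in the RefSeq promoter table for GRCm38.p6, with 9 promoters in all. Each line runs 5′ to 3′ on the + strand from 180 bases before the start site to 20 bases from it, and capitals mark a motif.
Trem2 (chr17:48346221-48346420): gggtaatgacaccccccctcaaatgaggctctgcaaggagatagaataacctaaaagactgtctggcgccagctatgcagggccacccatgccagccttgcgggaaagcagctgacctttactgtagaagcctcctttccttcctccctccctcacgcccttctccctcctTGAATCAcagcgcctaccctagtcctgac
Gpnmb (chr6:49036338-49036537): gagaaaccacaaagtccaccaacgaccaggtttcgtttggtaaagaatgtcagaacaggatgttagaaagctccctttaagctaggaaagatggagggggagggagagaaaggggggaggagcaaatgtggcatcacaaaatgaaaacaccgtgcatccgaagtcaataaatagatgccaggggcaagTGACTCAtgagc
Itgax (chr7:128129370-128129569): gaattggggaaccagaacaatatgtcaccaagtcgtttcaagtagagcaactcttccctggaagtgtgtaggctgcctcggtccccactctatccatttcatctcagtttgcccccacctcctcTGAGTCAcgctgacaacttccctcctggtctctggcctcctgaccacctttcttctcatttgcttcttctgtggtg
Spp1, first promoter (chr5:104434931-104435130): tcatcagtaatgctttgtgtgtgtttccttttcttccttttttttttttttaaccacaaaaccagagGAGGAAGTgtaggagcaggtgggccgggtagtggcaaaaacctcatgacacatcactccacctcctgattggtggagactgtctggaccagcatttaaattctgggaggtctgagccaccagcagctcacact
Mmp12, first promoter (chr9:7344217-7344416): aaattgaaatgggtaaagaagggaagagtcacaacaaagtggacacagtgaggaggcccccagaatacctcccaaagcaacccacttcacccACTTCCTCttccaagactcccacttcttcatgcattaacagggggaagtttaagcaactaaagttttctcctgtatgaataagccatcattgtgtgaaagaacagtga
Mmp12, second promoter (chr9:7347194-7347393): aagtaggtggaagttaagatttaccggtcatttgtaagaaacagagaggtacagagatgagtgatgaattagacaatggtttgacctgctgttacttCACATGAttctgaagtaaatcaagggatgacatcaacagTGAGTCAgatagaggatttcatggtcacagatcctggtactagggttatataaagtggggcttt

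Capitals mark TGANTCA, searched as the site of AP-1 factors with any middle letter, in the promoters of Trem2, Gpnmb and Itgax and the second promoter of Mmp12. The middle letter was A in Trem2, C in Gpnmb and G in Itgax and Mmp12. Capitals also mark GAGGAAGT or its reverse complement, the core site of the myeloid factor PU.1, in the first promoters of Spp1 and Mmp12. The reverse complement of TCATGTG, an M-box of the MITF family, is marked farther upstream in the second promoter of Mmp12. Both strands were searched over 300 bases per promoter, and no 2 motifs overlapped. TGANTCA was in 4 of the 9 promoters and in 7.81% of all 32851 promoters in the table. GAGGAAGT was in 2 of the 9 and in 3.20% of all, and TCATGTG in 1 of the 9 and 3.77% of all. TCACGTG, the core of the CLEAR element of lysosomal genes, was in 0 of the 9 and 3.77% of all. The 9 promoters include 2 each for Spp1 and Mmp12, and a match is a description of letters only.

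The first comparison was HFD against SD in Mof+/+ mice. Gene coordinates below are those of GRCm38. All 9 genes rose, with an adjusted p-value under 0.05 over all genes tested by edgeR's quasi-likelihood test. In the same direction, 6.02% of all 14939 genes tested were called. In the counts over lists below, genes that rose or fell are those called higher or lower at this threshold. All 9 genes were also higher in each HFD library than in each SD library, as were 21.0% of all genes in CPM and 25.2% in CPM scaled by the trimmed mean of M-values (TMM). The median log2 fold change was 4.83 over the 9 genes and −0.04 over all genes tested.

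**Figure D1:**
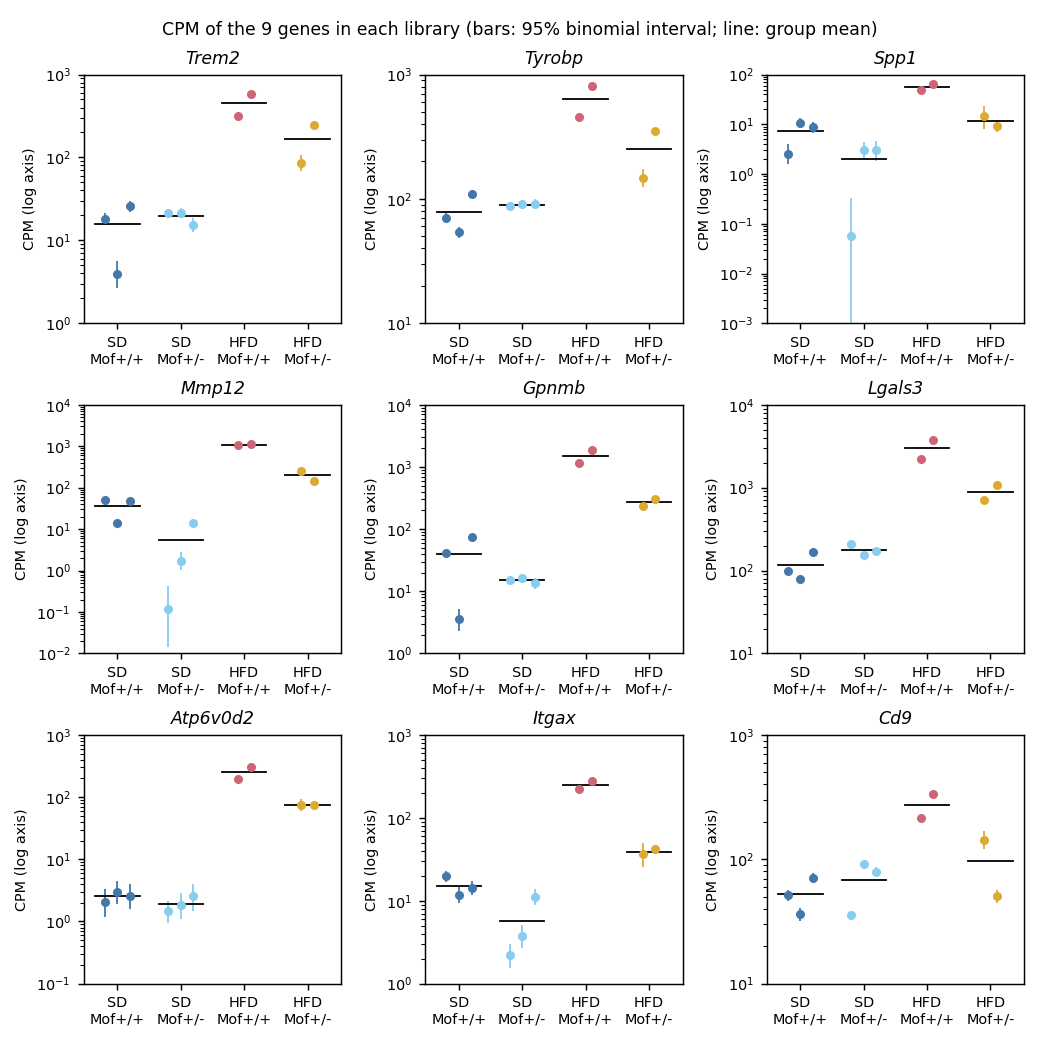
CPM of the 9 genes on a log axis, with 1 point per library, a bar for the 95% binomial interval (exact Clopper-Pearson, counting error only) and a line for the group mean. The HFD Mof+/+ libraries lie above all SD libraries in every panel, and the HFD Mof+/- libraries lie below the HFD Mof+/+ libraries and, apart from Cd9 and Spp1, above all SD libraries.

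Trem2 (chr17:48346401-48354147), the lipid-binding receptor, was at 18.0, 3.97 and 25.7 CPM in the SD libraries and at 313 and 588 CPM in the HFD libraries of Mof+/+ mice. Replicate 2, the library with glial genes, was the low SD library, with 29 counts, and even the highest SD library lay 12.2-fold below the lowest HFD library. The log2 fold change was 4.96 (standard error 0.67, adjusted p = 0.00990). Tyrobp (chr7:30413760-30417585), the adaptor that carries the signaling motif for TREM2 and for other myeloid receptors, was at 70.2, 54.0 and 109 CPM on SD and 454 and 809 CPM on HFD. Its diets did not overlap either, and its log2 fold change was 3.15 (standard error 0.36, adjusted p = 0.00650).

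Among the secreted proteins, Mmp12 (chr9:7344381-7369499), the macrophage metalloelastase that cleaves elastin, was at 49.9, 13.8 and 46.5 CPM on SD and at 1060 and 1116 CPM on HFD. The HFD libraries differed by 1.05-fold, and the log2 fold change was 5.02 (standard error 0.51, adjusted p = 0.00478). Spp1 (chr5:104435118-104441050), which encodes the matrix protein and cytokine osteopontin, was at 2.56, 10.7 and 8.65 CPM on SD and at 49.8 and 64.4 CPM on HFD. Its log2 fold change of 3.09 ± 0.53 (s.e., adjusted p = 0.0187) was among the smaller of the 9.

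The lysosomal genes held the largest change. Atp6v0d2 (chr4:19876841-19922605), the d2 subunit of the proton pump that acidifies lysosomes, was low on SD, at 2.04, 3.01 and 2.58 CPM from 16 to 22 counts, and reached 199 and 304 CPM on HFD. The mean rose 98.7-fold, and the log2 fold change of 6.75 ± 0.30 (s.e., adjusted p = 0.000597) had the smallest p-value of all 14939 genes tested. Gpnmb (chr6:49036546-49070929), a glycoprotein of lysosomes and melanosomes, was at 40.7, 3.56 and 73.8 CPM on SD and at 1146 and 1849 CPM on HFD. The SD libraries differed by up to 20.7-fold, the widest spread of the 9 genes in this group, with replicate 2 again the lowest, and the log2 fold change of 5.39 had the largest standard error (0.97, adjusted p = 0.0225). Lgals3 (chr14:47367751-47386160), the galectin that marks damaged lysosomes and was long used as the macrophage marker Mac-2, was at 99.8, 79.3 and 167 CPM on SD and at 2233 and 3761 CPM on HFD. Its log2 fold change was 4.83 (standard error 0.39, adjusted p = 0.00303).

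Of the surface genes, Itgax (chr7:128129547-128150657), which encodes the integrin CD11c, was at 19.7, 11.8 and 14.3 CPM on SD and at 223 and 279 CPM on HFD. The replicates lay close together within each diet, and the log2 fold change of 4.17 ± 0.26 (s.e., adjusted p = 0.00178) had the fifth smallest p-value of all genes. Cd9 (chr6:125460266-125494791), a tetraspanin, was at 51.3, 36.2 and 71.4 CPM on SD and at 214 and 333 CPM on HFD. It had the smallest change of the 9 genes, with a log2 fold change of 2.50 ± 0.32 (s.e., adjusted p = 0.00853). On 1 estimate of spread over all 10 libraries, 6 of the 9 genes passed, against 0.780% of all genes called higher, and without HFD Mof+/+ replicate 2 there were 5, against 0.330%. With the groups of the column headings, 0 genes of the 9 and 0% of 14619 genes passed, while all 9 log2 fold changes stayed positive, from 2.19 to 6.59.

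Per length of exons, the order of the genes changed with diet. In SD Mof+/+ libraries, the mean level (counts per kilobase of exon, scaled to the same sum in each library) was highest for Tyrobp (325 ± 107, s.d., n = 3), followed by Lgals3 (173 ± 62.8), Cd9 (72.3 ± 21.7), Gpnmb (16.6 ± 14.6), Mmp12 (14.1 ± 7.50), Spp1 (12.5 ± 7.39), Itgax (8.92 ± 2.32), Trem2 (8.89 ± 5.99) and Atp6v0d2 (2.64 ± 0.56). In HFD Mof+/+ libraries, Lgals3 came first (4212 ± 1484, s.d., n = 2), followed by Tyrobp (2472 ± 960), Gpnmb (600 ± 194), Mmp12 (393 ± 11.0), Cd9 (350 ± 104), Atp6v0d2 (242 ± 68.9), Trem2 (238 ± 101), Itgax (137 ± 20.3) and Spp1 (90.5 ± 15.6). On SD, Lgals3 and Cd9, and Cd9 and Gpnmb, did not overlap between libraries, whereas the other neighbours in the order overlapped. On HFD, the ranges of Mmp12, Cd9 and Atp6v0d2 each overlapped that of the next gene in the order, whereas the other neighbours did not overlap. Atp6v0d2 thus went from the last place to the sixth, and Cd9 from the third to the fifth. In Mof+/- libraries, Tyrobp came first on SD (313 ± 24.1, s.d., n = 3), followed by Lgals3 (223 ± 51.6) and Cd9 (76.9 ± 30.9), which did not overlap, and no other gene exceeded 11.0 in any library. On HFD, Lgals3 (1027 ± 470, s.d., n = 2) and Tyrobp (823 ± 601) overlapped, as did Cd9, Gpnmb, Trem2, Atp6v0d2 and Mmp12 as neighbours in that order, with means from 92.1 down to 55.6, and Itgax (17.0 ± 4.83) and Spp1 (14.5 ± 1.59) came last and overlapped as well.

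General macrophage genes moved with the 9 genes. The CPM summed over 15 general markers, to which Lyz2 gave the most, was 1424 to 2602 in SD Mof+/+, 2140 to 2293 in SD Mof+/-, 7274 to 9947 in HFD Mof+/+ and 2284 to 4437 in HFD Mof+/- libraries. In Mof+/+ mice, 12 of the 15 markers rose on HFD, with a median log2 fold change of 2.21. The CPM of the 9 genes was therefore also taken as a percentage of this sum. Together the 9 genes came to 17.7%, 15.2% and 20.0% of it in the SD Mof+/+ libraries and to 81.0% and 91.5% in the HFD Mof+/+ libraries. Relative to the markers, 8 of the 9 genes were higher in both HFD libraries than in any SD library, as were 1.45% of all genes tested. The exception was Spp1, at 0.128% to 0.750% on SD and 0.647% and 0.685% on HFD. On HFD the mean ratio was 21.0-fold that on SD for Atp6v0d2, 10.1-fold for Gpnmb, 7.37-fold for Mmp12, 7.07-fold for Trem2, 6.05-fold for Lgals3, 3.74-fold for Itgax, 1.88-fold for Tyrobp, 1.65-fold for Spp1 and 1.20-fold for Cd9. The 8 resident macrophage markers were lower on this scale, with a summed CPM of 25.0% to 37.8% of the general markers on SD and 7.65% and 9.32% on HFD. Their own summed CPM was 482 to 756 on SD and 678 and 761 on HFD, and 1 of them was called higher and 1 lower. No test was run on these ratios. The marker sum divides every gene and was itself higher on HFD in Mof+/+, which lowers the ratio of genes that did not rise with it. Shares over all genes on this scale, here and below, move with that sum and are not shares among macrophage genes.

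**Figure D2:**
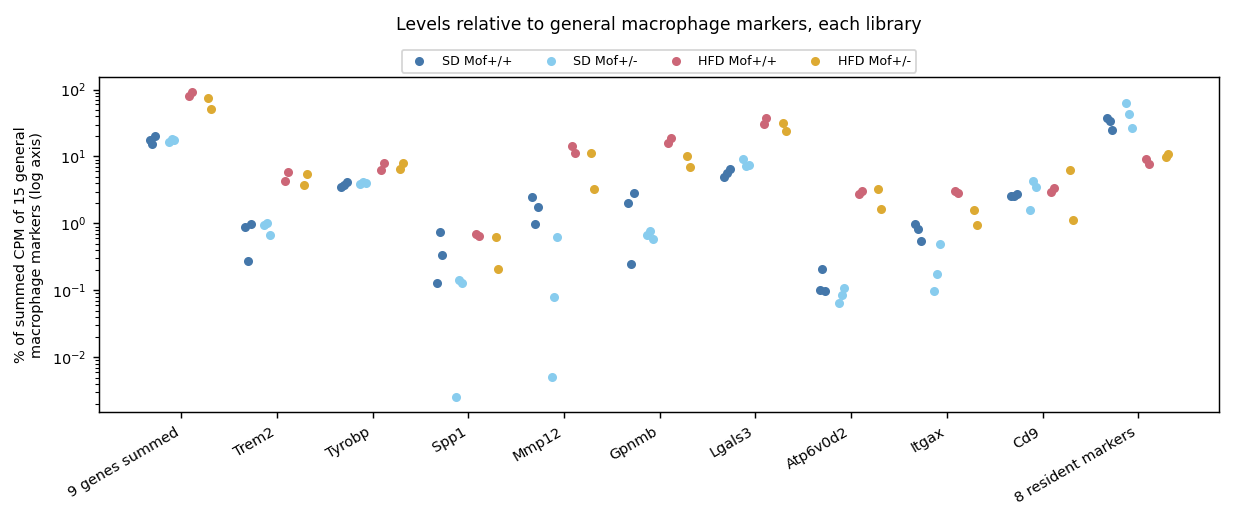
CPM of the 9 genes, summed and singly, and of 8 resident macrophage markers, as a percentage of the summed CPM of 15 general macrophage markers, on a log axis with 1 point per library. The 9 genes together lie at 15.2% to 20.0% in all SD libraries and at 51.8% to 91.5% in all HFD libraries.

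Other genes of the same state were described from lists. Of 20 further genes of lipid-handling macrophages and their lysosomes, 18 rose in Mof+/+ on HFD and 0 fell, with a median log2 fold change of 2.32. They included Ms4a7 (3.69, adjusted p = 0.00307), the collagen-degrading cathepsin Ctsk (3.24, adjusted p = 0.00319), the lysosomal acid lipase Lipa (2.42, adjusted p = 0.00353) and the cathepsin inhibitor Cstb (2.87, adjusted p = 0.00467). Of 8 lipid genes that adipocytes share, 4 rose, among them the lipid droplet gene Plin2 (2.40, adjusted p = 0.00660) and the lipoprotein lipase gene Lpl (1.23, adjusted p = 0.0190). Of the 16 other subunits and accessory proteins of the vacuolar proton pump, 11 rose, with a median of 1.12. The smallest p-values among them belonged to Atp6v1c1 (1.62, adjusted p = 0.00751), Atp6v0e (1.16, adjusted p = 0.0121) and Atp6v0b (1.48, adjusted p = 0.0121).

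Partners of TREM2 were counted in the same comparison. The list held 13 genes for its second adaptor, its downstream kinases, phosphatases and other signaling proteins, the proteases that shed it and its ligands. In Mof+/+ on HFD, 1 was called higher (Card9, log2 fold change 1.58, adjusted p = 0.0468) and 0 lower, beside the 6.02% of all genes called higher. Of the 13 genes, 10 had positive values, with a median of 0.75. The kinase gene Syk, which binds the phosphorylated adaptor, had a log2 fold change of 1.75 (adjusted p = 0.105), and the inhibitory phosphatase gene Inpp5d of 1.07 (adjusted p = 0.0629). Syk was at 46.9, 15.3 and 90.5 CPM on SD, the last in the library with lymphocyte genes, and at 132 and 181 CPM on HFD. Of the 7 osteopontin receptor genes, Cd44 rose by 2.89 (adjusted p = 0.00829) and Itgb5 by 0.72 (adjusted p = 0.0478). Of the 4 genes related to the CD11c integrin, the shared beta chain Itgb2 rose by 2.30 (adjusted p = 0.0235), the alpha chain Itgam by 3.35 (adjusted p = 0.00303) and Itgad by 3.37 (adjusted p = 0.0241), whereas Itgal, known from lymphocytes, had a value of −1.15 (adjusted p = 0.421). Among 7 other tetraspanins tested, Cd63 alone was called (1.54, adjusted p = 0.0124), and among 6 other galectin and galectin-binding genes Lgals1 alone (1.40, adjusted p = 0.0273).

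Markers of other cell types that are known to share some of the 9 genes were counted in the same comparison. Of 8 dendritic cell markers, 0 rose and 1 fell (Siglech, −5.79, adjusted p = 0.0373), where 3.73% of all genes were called lower. The summed CPM of the 8 markers was 66.3, 43.4 and 184 on SD, the last in the library with lymphocyte genes, and 53.7 and 57.3 on HFD. Of 7 osteoclast markers, 5 were tested and 2 rose, Ctsk and Dcstamp (2.84, adjusted p = 0.0204), which the list of lipid-handling macrophage genes also holds, and the calcitonin receptor gene Calcr was at 0 counts in all 10 libraries. The osteoclast markers summed to 411 to 618 CPM on SD and to 554 and 661 CPM on HFD. Of the 5 monocyte markers, 0 were called, and of 6 neutrophil markers, 3 were tested and 0 were called. Of 6 endothelial markers, 4 fell, and their summed CPM was 1111 to 2628 on SD and 443 and 511 on HFD. Of 10 adipocyte markers, 2 fell and 1 rose, with a summed CPM of 20790 to 28880 on SD and 12690 and 16660 on HFD. Of 6 glial markers, 5 were tested and 2 fell. The part of these shifts in the values of the 9 genes was not tested.

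**Figure D3:**
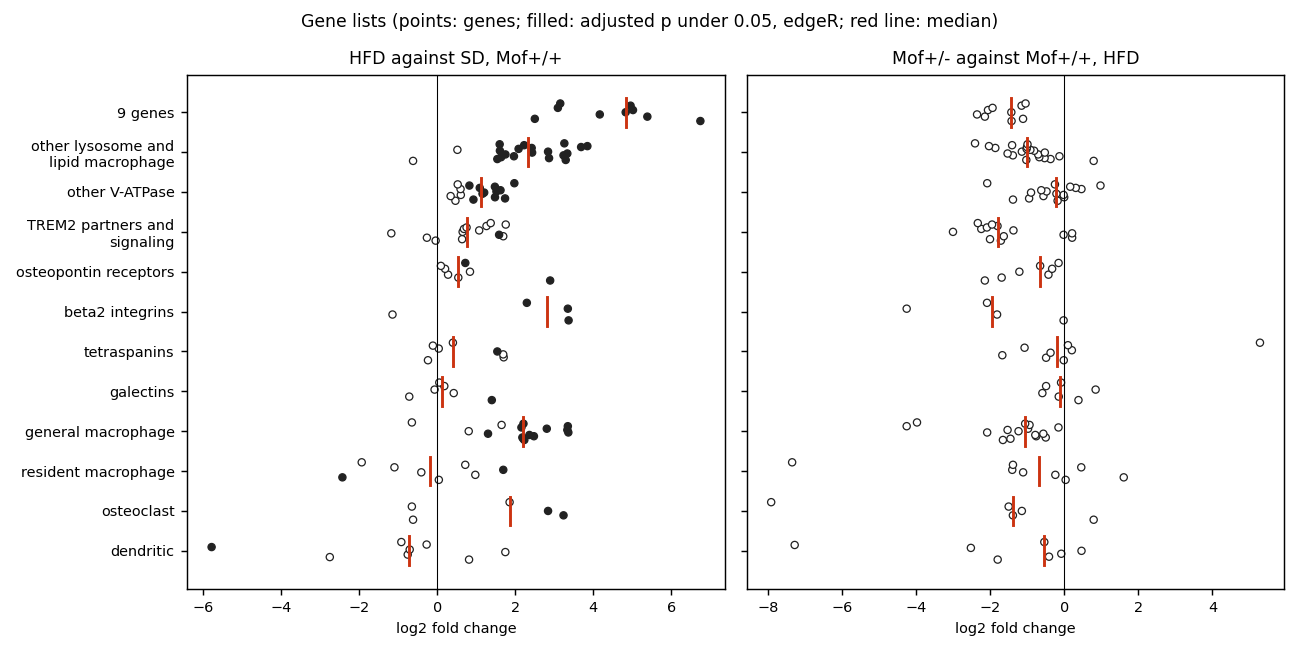
Log2 fold changes of the genes of each list for HFD against SD in Mof+/+ mice and for Mof+/- against Mof+/+ mice on HFD, with 1 point per gene tested, filled where the adjusted p-value was under 0.05 (edgeR), and a red line at the median. On the diet side the 9 genes have a median of 4.83 and the other lipid-handling macrophage genes of 2.32, and on the genotype side no point is filled.

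In Mof+/- mice, the same diet comparison called 0 of the 9 genes and 0% of 13610 genes. The smallest adjusted p-value was 0.0762 (1166 genes had an unadjusted p-value under 0.05), and it belonged to Gpnmb. In CPM, 8 of the 9 genes (all but Cd9) were higher in both HFD libraries than in any SD library, as were 9.88% of all genes in CPM and 9.29% in TMM-scaled CPM. The median log2 fold change was 2.74 over the 9 genes and −0.26 over all genes tested.

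Gpnmb was at 15.3, 16.6 and 13.4 CPM on SD and at 236 and 306 CPM on HFD in Mof+/- mice, and Atp6v0d2 was at 1.46, 1.82 and 2.53 CPM and then 74.7 and 73.8 CPM. The replicates of these genes lay close together on each diet, with log2 fold changes of 4.16 (standard error 0.39, adjusted p = 0.0762) and 5.26 (standard error 0.59, adjusted p = 0.104), the smallest p-values of all genes tested. Mmp12 was at 0.12, 1.73 and 14.4 CPM on SD and at 259 and 144 CPM on HFD, and Spp1 at 0.06, 3.07 and 2.97 CPM and then 14.4 and 9.40 CPM. The values of SD Mof+/- replicate 1 rested on 2 counts of Mmp12 and 1 count of Spp1, in a library of 17171947 counts. Their log2 fold changes of 5.21 and 2.54 had standard errors of 1.45 and 1.57.

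Trem2 was at 21.5, 21.4 and 15.5 CPM on SD and at 86.2 and 247 CPM on HFD (log2 fold change 3.07, standard error 0.49, adjusted p = 0.143), and Tyrobp at 88.1, 90.3 and 91.8 CPM and then 147 and 354 CPM (1.44, standard error 0.43, adjusted p = 0.442). Lgals3 was at 208, 154 and 170 CPM and then 717 and 1073 CPM (2.32, standard error 0.43, adjusted p = 0.171), and Itgax at 2.21, 3.74 and 11.2 CPM and then 36.4 and 41.8 CPM (2.74, standard error 0.87, adjusted p = 0.471). Cd9 overlapped between the diets, at 35.7, 91.4 and 79.3 CPM on SD and 144 and 50.3 CPM on HFD, with a log2 fold change of 0.53 ± 0.63 (s.e., adjusted p = 0.879). Relative to the general macrophage markers, the 9 genes together came to 16.4%, 18.0% and 17.5% in SD and 75.1% and 51.8% in HFD Mof+/- libraries, and 8 of the 9 did not overlap, against 2.69% of all genes. Of the 16 muscle genes, 15 were tested here, and all had positive values (median 11.17). General macrophage markers were positive in 11 of 15 (median 0.43). All 8 resident macrophage markers (median −1.81) and 5 of 6 mesothelial markers (median −2.36) had negative values. None of these lists held a call, and their part in the values of the 9 genes was not tested. The SD Mof+/- libraries of this comparison are those with Xist and without Ddx3y. With DESeq2 in place of edgeR, 5 of the 9 genes were called higher (Trem2, Mmp12, Gpnmb, Lgals3 and Atp6v0d2), against 1.0% of the 20454 genes with at least 1 count. With 1 estimate of spread over all 10 libraries 4 were (the same without Mmp12), against 0.566% of the genes that passed the filter.

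**Figure D4:**
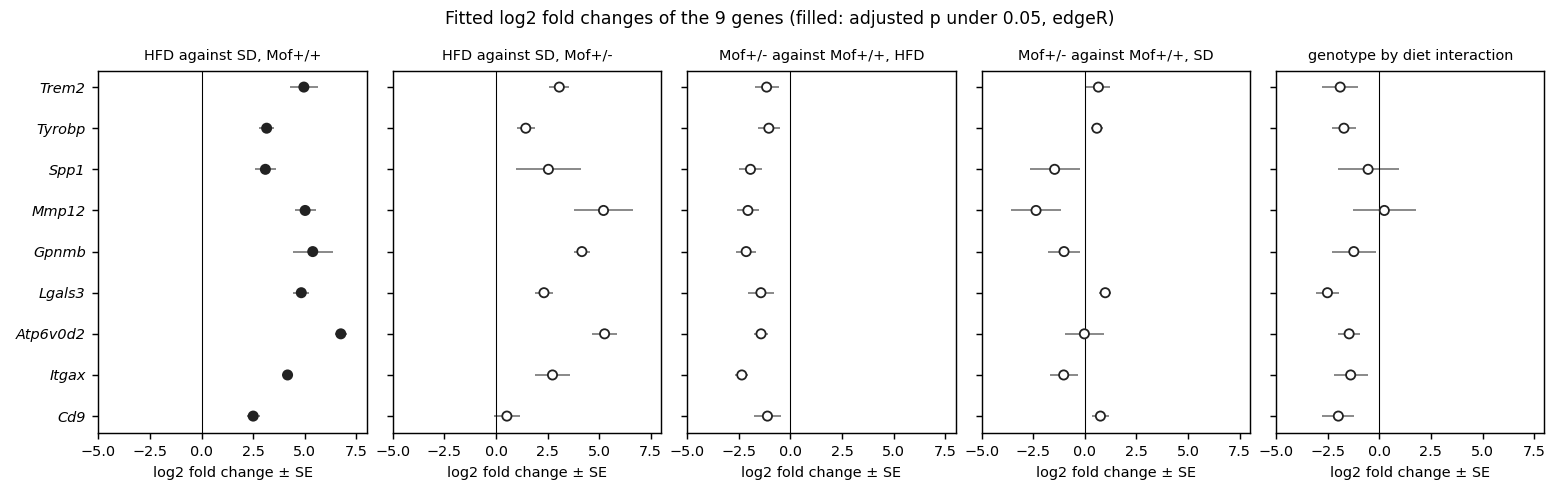
Log2 fold changes of the 9 genes with their standard errors in each comparison, from edgeR. Filled points, with an adjusted p-value under 0.05, are found for HFD against SD in Mof+/+ mice alone, where all 9 are filled.

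Between the genotypes on HFD, all 9 genes were lower in both Mof+/- libraries than in either Mof+/+ library, and 0 of the 9 were called, as were 0% of 14120 genes (1732 had an unadjusted p-value under 0.05, 5 of the 9 genes among them). The lack of overlap was common among all genes: 45.6% were lower in CPM, 38.1% in TMM-scaled CPM and 40.1% in CPM with mitochondrial and muscle genes left out of the total, and all 9 genes were lower on each of these scales. The median log2 fold change was −1.43 over the 9 genes and −0.24 over all genes tested. With a correction for gene length, the median of all genes moved to 0.62, and the values of the 9 genes lay from −1.21 (Itgax) to 0.18 (Cd9), below that median and with 0 called. The libraries of this comparison are those given above, so that its Mof+/+ side also serves the diet comparison.

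Itgax, with 223 and 279 CPM in Mof+/+ against 36.4 and 41.8 CPM in Mof+/-, had a log2 fold change of −2.36 ± 0.31 (s.e., adjusted p = 0.278 by edgeR), the third smallest p-value of all genes. Gpnmb, with 1146 and 1849 CPM against 236 and 306 CPM, followed with −2.15 (standard error 0.47), Mmp12 with −2.06 (standard error 0.52), Spp1 with −1.94 (standard error 0.56) and Atp6v0d2 with −1.43 (standard error 0.36), each at an adjusted p of 0.278. The genes of the receptor complex had values of −1.16 for Trem2 (standard error 0.58, adjusted p = 0.582) and −1.05 for Tyrobp (standard error 0.53, adjusted p = 0.582), and their lower HFD Mof+/+ library exceeded the higher Mof+/- library by 1.27-fold and 1.28-fold. Lgals3 had a value of −1.43 (standard error 0.62, adjusted p = 0.491) and Cd9, whose sign turned with the length correction, of −1.12 (standard error 0.67, adjusted p = 0.664). Cd9 was at 144 CPM in HFD Mof+/- replicate 1, the library with the most muscle and mitochondrial counts. There it came to 219 CPM with those genes left out of the total, just under the 224 CPM of HFD Mof+/+ replicate 1 on that scale.

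The calls depended on which Mof+/- libraries entered. Without replicate 1, 7 of the 9 genes passed as lower, against 17.0% of all genes, and without replicate 2, 8 passed, against 34.2%. In each case the lone library was assumed to vary as the Mof+/+ pair did. Relative to the general macrophage markers, the 9 genes together came to 81.0% and 91.5% in Mof+/+ and 75.1% and 51.8% in Mof+/- libraries. Singly, Itgax, Gpnmb and Spp1 were lower in both Mof+/- libraries, against 14.5% of all genes, whereas the other 6 overlapped. All 15 general markers had negative log2 fold changes, with a median of −1.06, and 0 were called. The smallest p-value among them was that of Itgam (−4.26, standard error 0.48, adjusted p = 0.278), at 88.2 and 136 CPM in Mof+/+ and 4.79 and 4.70 CPM in Mof+/-. The 4.79 CPM was in replicate 1 and lay near its floor of 2.87 CPM. In replicate 1 of HFD Mof+/-, the macrophage genes Adgre1 and Mertk were at 0 counts, where 3 counts would be 2.87 CPM, while Adgre1 was at 136 CPM in replicate 2. In the same library 7 of 8 dendritic cell markers were at 0 counts, against 0 to 2 in the others, and 6 of 6 neutrophil markers, against 2 or 3 in the others. Of the 20 further lipid-handling macrophage genes, 19 had negative values (median −1.0), and of the 13 TREM2 partner genes 11 did (median −1.81), among them Syk (−1.95, adjusted p = 0.278) and Ptpn6 (−1.81, adjusted p = 0.278), and 0 of either list were called. Of the TREM2 partner genes, 7 of 13 (Hcst, Plcg2, Vav1, Btk, Pik3ap1, Adam10 and Adam17) were at 0 counts in HFD Mof+/- replicate 1, and 0 were at 0 counts in replicate 2. Of the 16 muscle genes, 15 were tested, and all had positive values (median 11.96). They summed to 77020 and 1848 CPM in Mof+/- and to 32.2 and 32.3 CPM in Mof+/+. Of 10 adipocyte markers, 9 had positive values (median 0.46), and 0 of either list were called. The part of these differences in the values of the 9 genes was not tested.

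On SD, 0 of the 9 genes were called between the genotypes, against 5.24% of 13864 genes tested. Itgax was lower in each Mof+/- library, at 2.21, 3.74 and 11.2 CPM against 19.7, 11.8 and 14.3 CPM, as were 30.6% of all genes in CPM. With TMM scaling it overlapped, and Tyrobp and Lgals3 were then higher in each Mof+/- library, as were 18.0% of all genes. Relative to the general macrophage markers, Itgax and Mmp12 were lower in each Mof+/- library, as were 31.7% of all genes, and Lgals3 was higher, as were 5.18%. Lgals3 had the smallest p-value of the 9 genes, with a log2 fold change of 0.99 ± 0.30 (s.e., adjusted p = 0.0864). Trem2, Cd9 and Tyrobp had values of 0.65, 0.75 and 0.58, Atp6v0d2 of −0.03, and Gpnmb, Spp1 and Mmp12 of −1.01, −1.47 and −2.37, the last with a standard error of 1.22. Gene length differed among them, with exons of 667 bases in Tyrobp, 1858 in Lgals3 and 2044 in Cd9 but 6514 in Gpnmb and 7237 in Mmp12, whereas Spp1 had 1648 and Trem2 4946. With the length correction, Tyrobp turned to −0.51, and Lgals3 and Cd9 came to 0.48 and 0.25. With the groups of the column headings, Gpnmb turned to 0.82. Of the 20 further lipid-handling macrophage genes, 4 were called higher in Mof+/- on SD, Ctsl, Cd63, Cstb and Ctsd, with log2 fold changes of 1.17 to 1.48. Of the macrophage markers, 3 of 15 general ones (C1qa, C1qb and C1qc) and 2 of 8 resident ones (Folr2 and Cbr2) were called higher as well. Other cell types moved with the same groups. Of 6 endothelial markers, 4 were called lower, with sums of 1111 to 2628 CPM in Mof+/+ and 252 to 373 CPM in Mof+/-. Of 6 mesothelial markers, 3 were called higher, with sums of 22.5 to 97.1 CPM and 158 to 326 CPM. Of 10 adipocyte markers, 4 were called higher, with sums of 20790 to 28880 CPM and 33570 to 42470 CPM. The part of these and of the sex markers was not tested.

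The genotype by diet interaction, fitted to all 10 libraries, called 0 of the 9 genes and 0.0881% of 15897 genes. It was negative for 8 of the 9 genes, where a negative value is a smaller log2 difference between the diets in Mof+/-, with a median of −1.46 over the 9 and −0.41 over all genes tested. The value was −2.52 for Lgals3 (standard error 0.56, adjusted p = 0.135), −1.99 for Cd9 (standard error 0.77, adjusted p = 0.337), −1.90 for Trem2 (standard error 0.87, adjusted p = 0.404) and 0.24 for Mmp12 (standard error 1.54, adjusted p = 0.984). The other 5 genes had −1.72 (Tyrobp), −1.46 (Atp6v0d2), −1.39 (Itgax), −1.24 (Gpnmb) and −0.55 (Spp1), with adjusted p-values from 0.291 to 0.926. With the length correction the median of all genes moved to 0.30, Tyrobp came to −0.07 and Spp1 turned to 0.98. Of the macrophage markers, Itgam was called (−5.27, standard error 0.61, adjusted p = 0.00669), with a value near the floor in HFD Mof+/- replicate 1 (4.79 CPM). The sex markers of SD Mof+/- and the muscle genes of both HFD Mof+/- libraries lie within this comparison, and their part was not tested.

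The likeness of the 9 genes to each other was measured across the 10 libraries. On log2 CPM after TMM normalization, with a prior count of 2, Pearson's r between pairs of the 9 genes ranged from 0.61 (Trem2 with Spp1) to 0.98 (Tyrobp with Lgals3), with a median of 0.83 over 36 pairs. Trem2 was closest to Tyrobp (0.98), Lgals3 (0.97) and Gpnmb (0.97), and Mmp12 to Itgax (0.96) and Spp1 (0.91). Trem2, Tyrobp and Lgals3 had their lowest SD values in Mof+/+ replicate 2, as Gpnmb did, whereas Mmp12, Spp1 and Itgax had theirs in Mof+/- replicate 1. Outside the 9, the named genes most like Trem2 among 15897 genes were Plin2 (r = 0.98), the chemokine gene Ccl9 (0.97), the actin-capping gene Capg (0.97), the phospholipid transfer protein gene Pltp (0.97), the lysozyme gene Lyz2 (0.97), the Fc receptor chain Fcer1g (0.96), Manf (0.96) and the prostaglandin D synthase Hpgds (0.95). Plin2 was at 213 to 388 CPM in the 6 SD libraries, 1143 and 1637 CPM in HFD Mof+/+ and 657 and 1269 CPM in HFD Mof+/-. The points share the diet difference, library depth and composition, so the values of r are a description with no test.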

How the data were processed

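Poly(A) RNA of visceral WAT was sequenced in 10 libraries (unstranded TruSeq v2, paired reads). The authors ran STAR against GRCm38 and counted reads per gene with featureCounts (Subread 1.5.0-p1 in the submitters' processing notes), and the deposited values are these counts, not normalized. Genes were named through GENCODE M21, ignoring identifier versions (47224 of 47937 matched), from which coordinates were also taken. Conditions follow the sample labels.

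CPM, and counts per kilobase of exon scaled to one sum, were computed per library, with 95% exact Clopper-Pearson intervals. The floor was 3 counts. Intervals and floors cover counting error only. Groups were compared on counts with edgeR 4.0.16 in R 4.3.3 (quasi-likelihood test, TMM, filterByExpr, Benjamini-Hochberg adjustment over all genes, threshold 0.05), fitted to the libraries compared, and the interaction to all 10. The standard error was taken from the log2 fold change and its F statistic. The code was tested on simulated counts. The 9 genes and all lists were chosen with earlier results of these data known. The text names all 9 genes, up to 4 genes per other list with the smallest adjusted p-values, the 8 named genes most correlated with Trem2, and Kat8. Genes outside this rule (Xist, Ddx3y, genes named for being at 0 counts and, as the largest contributor to the macrophage sum, Lyz2) were chosen after their values were seen. Spp1, Cd9 and Mmp12 share exon bases with another annotated gene (Gm42793, Gm26728 and Mmp1b), which had at most 1.93 CPM in any library, and the kit does not mark strand.

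Alternatives were DESeq2 1.42.0, its size factors, other filters on low counts, the replicate number as a block, a joint fit, a correction for gene length, scaling without mitochondrial and muscle genes, grouping by column headings, and each library left out. The overlap of groups on other scales, the ratio to macrophage markers included, and the interaction without SD Mof+/+ replicate 3 and HFD Mof+/- replicate 1, were added after the data were seen.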

Additional observations from a re-analysis of the deposited data

Results flagged for a closer look

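For 2 of the 9 genes, the genotypes differed in opposite directions on the diets in every library after TMM normalization, as they did in the same sense for 4.16% of the 13120 genes tested on both diets. Lgals3 was at 87.9, 70.4 and 142 TMM-scaled CPM in SD Mof+/+ and 227, 169 and 202 in SD Mof+/- libraries, but at 2096 and 3533 in HFD Mof+/+ and 858 and 1104 in HFD Mof+/- libraries. Tyrobp was at 62.0, 48.0 and 92.7 against 96.4, 99.1 and 109 on SD, and at 427 and 760 against 177 and 364 on HFD. The difference itself, tested as the genotype by diet interaction with edgeR, was −2.52 for Lgals3 (standard error 0.56, adjusted p = 0.135) and −1.72 for Tyrobp (standard error 0.57, adjusted p = 0.291), so neither passed the threshold. In plain CPM the genotypes overlapped on SD for both genes. With the correction for gene length, Tyrobp was at −0.51 between the genotypes on SD and −0.40 on HFD, so that its opposite directions were lost, and its interaction was −0.07. Lgals3 was then at 0.48 on SD and −0.57 on HFD, with an interaction of −1.29 (adjusted p = 0.345). No group had the 4 libraries needed to look for a library far from the others.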

How the results depend on the processing

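The rise of the 9 genes on HFD in Mof+/+ mice kept its direction for all 9 genes under all alternatives run. Of its 126 values for single genes under alternatives, 105 stayed on their side of the threshold and 21 lost the call. Percentages in parentheses are the share of all genes called in either direction in the same setting. With DESeq2 and without the filter they are over all genes with at least 1 count, so they are not on the same genes as the other shares. The count was 9 in most settings, 6 in the joint fit of all libraries (0.893%) and 0 with the groups of the column headings, and 5 to 9 with each library left out (5 without HFD Mof+/+ replicate 2, with 0.384%, 7 without replicate 1, with 1.49%, and 6 without SD Mof+/+ replicate 1, with 1.63%). In Mof+/- mice the diet comparison called 0 genes, but 5 with DESeq2 (2.3%), 5 without the filter (2.1%), 3 with at least 10 counts in every library (0.363%), 4 in the joint fit (1.19%), 4 with the length correction (0.501%), and 0 to 4 with each library left out (3 without HFD Mof+/- replicate 1, with 0.0768%, and 4 without replicate 2, with 13.8%). On HFD the genotype comparison called 1 gene with DESeq2 (Itgax, adjusted p = 0.0498; 0.973%) and 0 to 8 with each library left out (8 with 47.9%). On SD it called 1 with DESeq2 (9.97%) and 1 without the filter (8.35%), in both Lgals3, and 0 to 1 with each library left out (Mmp12 without SD Mof+/- replicate 3, with 4.51%). The interaction called 1 with DESeq2 (2.16%) and 1 without the filter (1.62%), in both Lgals3, 0 to 2 with each library left out (Lgals3 and Tyrobp without HFD Mof+/- replicate 2, with 17.7%), and 0 without both doubted libraries. Between same-numbered libraries, the deviations from the group means had r from −0.04 to 0.03 over 9 pairs. With 2 libraries in each HFD group, the deviations within a group are mirror images, and both same-numbered HFD pairs had the same r of 0.03. These values therefore cannot decide whether the numbers pair the libraries. With the replicate block, the diet comparison in Mof+/- called 5 of the 9 genes (1.8%) and the genotype comparison on HFD 1 (Itgax; 1.42%), and the other counts did not change.

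Some directions changed, none of a value past the threshold. With the length correction, which moved the median of all genes from −0.24 to 0.62 on HFD and from −0.41 to 0.30 in the interaction, Tyrobp was at −0.51 between the genotypes on SD, Cd9 at 0.18 on HFD, and Spp1 at 0.98 in the interaction. With the column headings, Gpnmb was at 0.82 on SD and Mmp12 at −1.33 in the interaction, where it was at −0.50 without both doubted libraries. With each library left out, Atp6v0d2 ran from −0.32 to 0.17 on SD, Cd9 from −0.58 to 1.16 between the diets in Mof+/-, and Mmp12 from −0.35 to 2.98 in the interaction. The causes of these changes were not tested. Over all genes, the number called moved from 727 to 2198 on SD with DESeq2 and to 194 in the joint fit, from 0 to 198 between the genotypes on HFD with DESeq2 and to 200 with the block, from 1457 to 2967 for diet in Mof+/+ with DESeq2 and to 142 in the joint fit, from 0 to 470 for diet in Mof+/- with DESeq2 and to 189 in the joint fit, and from 14 to 505 in the interaction with DESeq2. On SD the number called ran from 17 to 1026 with each library left out and was 0 with the column headings. At 1044355 counts, a gene of HFD Mof+/- replicate 1 needed 2.87 CPM to reach 3 counts. With 2 or 3 libraries per group, p-values measure the spread of these libraries alone.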
